A study of Bos taurus with 9 samples.

Results

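Bovine mesenchymal stem cells (MSCs) from bone marrow were compared before and after 28 days of chondrogenic culture, on 3 arrays titled MSC_day28 and 3 arrays titled MSC_day0, which are 6 of the 9 arrays of the series. The arrays were chosen by these titles, and those with the same number in the title came from the same calf. MSCs of the day 0 group were undifferentiated, had been seeded in agarose and were harvested once they were encapsulated. Those of the day 28 group were kept in agarose for 28 days in a chemically defined medium that contained TGF-beta3 at 10 ng/mL. The 3 remaining arrays hold articular chondrocytes of the same 3 donors, kept in agarose with the same factor for the same time. They serve here as a level to set beside the day 28 MSCs, and they also enter the estimate of spread. All donors were calves aged 3 to 6 months, no genetic change or further agent is named for any group, and no culture without TGF-beta3 was compared, so time in the gel and TGF-beta3 cannot be told apart. Whether an array holds RNA of 1 gel or of several is not given in the sources used here. The p-values therefore measure the spread between these 3 samples a group, pooled over the 3 groups, chondrocytes included.

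Marrow MSCs are adherent stromal cells that on plastic spread, divide and carry actin stress fibres. In a soft gel they round up, and TGF-beta signals through its receptors and SMAD proteins to switch on the genes of cartilage matrix. Alongside the matrix programme, such cells can change how they attach, divide, use fuel and signal to neighbours, and those changes are described below, by role.

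All levels are log2 signals after RMA, a method that puts every array on 1 distribution, so a step of 1 is a 2-fold change, and a difference is the day 28 mean minus the day 0 mean with its standard error from limma. A gene was called when its p-value, adjusted by Benjamini-Hochberg over 24016 probe sets, was under 0.05. A gene is represented by its probe set of highest mean over the 9 arrays, and levels are not compared between genes. Bulk RNA was measured, in which fewer cells of a type and less RNA per cell cannot be told apart.

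The 25th percentile of signal lay between 2.49 and 2.55 on the 9 arrays, so that levels near or under it carry little information, and folds against them depend on the background correction. The spiked hybridisation control bioC read 8.35 on MSC_day28 replicate 3 and between 11.0 and 11.4 on the other 5 MSC arrays. The signal at the 3′ end of 3 control transcripts exceeded that at their 5′ end by 0.16 to 0.28 on the day 0 arrays and by 0.49 to 0.77 on the MSC arrays of day 28, ranges that do not overlap. Its part in the results was not tested. Cartilage matrix genes bore out the chondrogenic label of the day 28 arrays: 10 of 13 measured members rose, 1 fell, and the median change was 4.59. COMP, a matrix glycoprotein of cartilage, read 4.52, 4.56 and 4.43 at day 0 and 13.18, 13.18 and 12.66 at day 28. Stromal surface markers, which mark the MSC label, were above the 25th percentile on at least 1 array of each day except for 1 of 15. Of the 15 markers 3 fell and 1 rose, or 26.7% called, beside 34.5% of all genes. The largest fall was in CXCL12 (-4.07 ± 0.56), a secreted chemokine that holds blood cells in marrow and is not itself a surface protein. The other falls were the hyaluronan receptor CD44 (-2.22 ± 0.34) and NT5E, the ectonucleotidase CD73 (-0.81), whose other probe set, at -0.59, did not pass. MCAM, an adhesion molecule of perivascular cells, rose by 1.49 ± 0.35.

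Of 24016 probe sets 7256 (30.2%) were called over 28 days. By gene, 3154 of 9155 were called, 1235 higher (13.5% of all genes tested) and 1919 lower (21.0%), or 34.5% in either direction. A list below with about that share of members called does not stand out from all genes by its count. The lists were chosen with earlier results of these data known, so a larger share is no independent support either. The median change over all genes was -0.11. At least a 2-fold change was seen in 691 of the genes that rose and 1010 of those that fell, and at least a 16-fold change in 50 and 37. For 4290 genes (46.9%) the 3 arrays of one day lay wholly above or below those of the other. The direction was the same in all 3 donors for 3149 of the 3154 called genes, which a call made on these same arrays makes likely in advance. Across all 24016 probe sets, which are not independent replicates, the changes of 2 donors correlated at 0.853 for donors 1 and 2, 0.813 for donors 1 and 3 and 0.816 for donors 2 and 3. By these correlations the change was shared in outline by the 3 calves, with a median absolute difference between donors of 0.297 to 0.324.

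**Figure D1:**
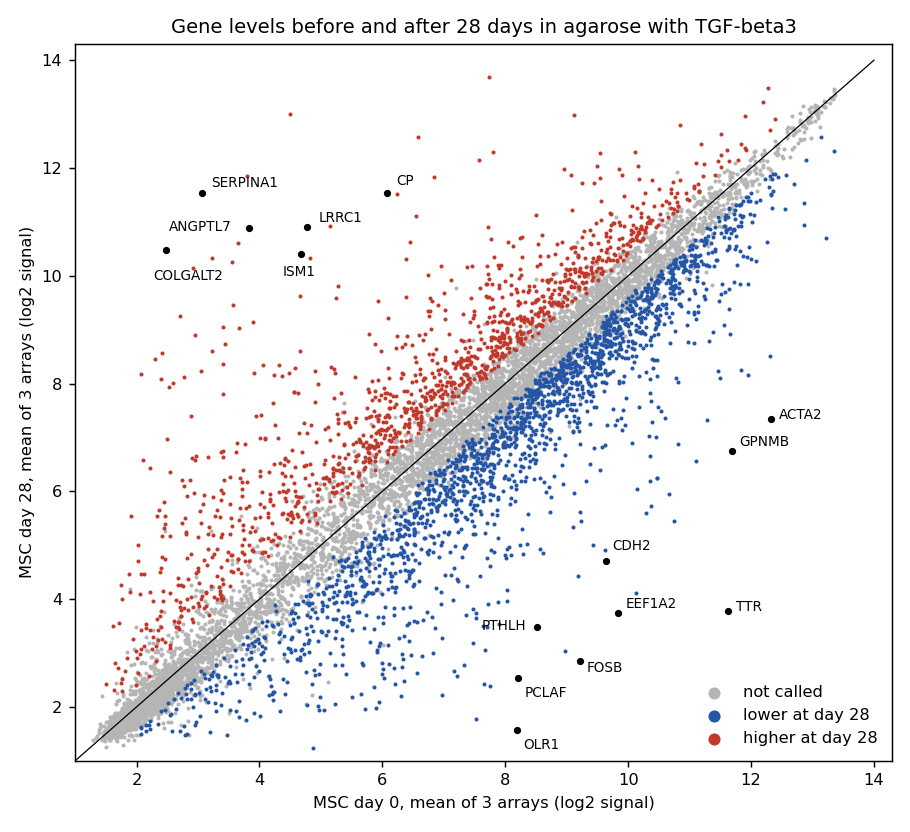
Mean log2 signal of 3 arrays at day 0 (horizontal axis) against day 28 (vertical axis) for 9155 genes, 1 point each, with the line of equal level; red points were called higher, blue points lower, grey points were not called, and black points are named. Genes that rose most, such as SERPINA1 and COLGALT2, started near the background, while several that fell most, such as TTR, ACTA2 and GPNMB, started above the upper quartile of their arrays (7.74 to 7.80 over the 9 arrays).

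Outside the cartilage list, the 15 largest rises spanned 53-fold to 355-fold. SERPINA1, a secreted inhibitor of serine proteases, read 2.93, 3.20 and 3.07 at day 0 and 11.51, 11.44 and 11.66 at day 28, a rise of 8.47 ± 0.13 (adjusted p = 3.72e-09). COLGALT2, an enzyme that adds galactose to collagen, went from 2.40, 3.06 and 1.98 to 10.71, 10.24 and 10.48. For these genes the day 0 arrays were all near the 25th percentile and the day 28 arrays all above the upper quartile. SMOC2, a secreted calcium-binding matrix protein, moved from 2.90, 2.83 and 3.03 to 10.69, 9.93 and 9.78. ZNF385B, a zinc finger protein, moved from 3.71, 3.59 and 3.65 to 10.51, 10.40 and 10.90. RFLNA, which binds the actin crosslinker filamin, moved from 2.5, 2.46 and 2.27 to 8.76, 8.79 and 8.15.

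Further genes in this group have roles in sorting, clotting and secretion. SORL1, a receptor that sorts cargo between Golgi and endosome, read 2.33, 2.48 and 2.08 at day 0 and 8.50, 8.27 and 8.6 at day 28, and its 3 other probe sets were called in the same direction. LRRC1, a scaffold protein with leucine-rich repeats, rose by 6.13 ± 0.38 and CLEC3A, a lectin first known from cartilage, by 6.09 ± 0.22. ISM1, a secreted protein, differed among donors at day 0, with 4.63, 2.55 and 6.84, and hardly at day 28, with 10.28, 10.33 and 10.59. F13A1, the catalytic chain of clotting factor XIII, a transglutaminase that crosslinks proteins, was near the background at day 0 in donors 1 and 2 (3.36 and 2.86) and high in donor 3 (9.25). At day 28 it read 11.34, 10.31 and 11.10, so the mean rise of 5.76 ± 1.39 (adjusted p = 0.0122) joins 2 large changes to 1 small one. Alkaline phosphatase, ALPL, which frees phosphate for mineral, was spread at day 28 (10.70, 7.03 and 9.0, against 3.09, 2.53 and 3.25), and its other probe set, at 0.73, did not pass. SHISAL2B rose by 7.10 ± 0.36.

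ANGPTL7, a secreted angiopoietin-like protein, and SHISAL2B were the only 2 of the 15 that were lower in chondrocytes. ANGPTL7 read 3.91, 3.55 and 4.01 at day 0, 11.42, 11.57 and 9.66 in day 28 MSCs and 6.84, 6.44 and 6.78 in chondrocytes, a difference of -4.20 ± 0.44 between chondrocytes and day 28 MSCs (adjusted p = 0.000472). Chondrocytes had more of 2 genes, SERPINA1 (1.27 ± 0.13) and RFLNA (1.02 ± 0.20), and the other 11 were not called. That contrast, in which 764 genes (8.35%) were called higher and 440 (4.81%) lower in chondrocytes, shares the day 28 MSC arrays with the change over time. The values of both are therefore set side by side here and elsewhere, and none is support for the other.

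The 15 largest falls spanned 30.7-fold to 231-fold. TTR, the carrier of thyroid hormone that also binds the retinol carrier RBP4, read 11.35, 12.18 and 11.36 at day 0 and 3.02, 4.47 and 3.84 at day 28, and fell by 7.85 ± 0.46 (adjusted p = 8.01e-06). Its partner RBP4 moved the other way, from 8.83, 8.83 and 9.53 to 12.21, 11.29 and 12.09, a rise of 2.80 ± 0.27. The scavenger receptor for oxidised lipoprotein, OLR1, went from 8.78, 7.61 and 8.19 to 1.47, 1.44 and 1.82, which is under the 25th percentile. COLEC12, a scavenger receptor with a collagen-like stalk, went from 6.66, 9.48 and 7.12 to 2.38, 3.28 and 1.53. GPNMB, a glycoprotein of lysosomes and the cell surface, fell by 4.94 ± 0.39, from levels of 11.56 to 11.84. EEF1A2, the form of the translation factor eEF1A known from muscle and nerve, read 8.56, 10.41 and 10.55 and then 3.79, 3.36 and 4.06. In each of these genes the lowest day 0 array was above the highest day 28 array, which the choice of the largest falls makes likely in advance.

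The matricellular gene CCN5 read 10.39, 10.50 and 9.49 at day 0 and 3.55, 4.69 and 4.10 at day 28, a 64.6-fold fall. ANXA3, a calcium-dependent membrane binder, fell by 5.23 ± 0.26. CD55, which protects cells from complement, fell from 6.08, 8.42 and 8.09 to 1.60, 1.88 and 1.87. Of the 15 genes with the largest falls, 7 were higher in chondrocytes than in day 28 MSCs, none was lower and 8 were not called. The 7 were TTR, FOSB, PCLAF, COLEC12, PTHLH, ACTA2 and CDH2. Among them PCLAF, a partner of the replication clamp PCNA, stood out by size: 7.87, 8.58 and 8.17 at day 0, 2.63, 2.37 and 2.60 in day 28 MSCs, and 8.84, 9.13 and 9.01 in chondrocytes.

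Parathyroid hormone-related peptide, PTHLH, and the receptor it shares with parathyroid hormone, PTH1R, form a signalling pair that paces the growth plate. The ligand PTHLH read 8.50, 8.47 and 8.56 at day 0 and 3.24, 3.54 and 3.66 at day 28, a fall of 5.03 ± 0.41 (adjusted p = 4.11e-05). The receptor PTH1R read 3.31, 2.77 and 4.63 and then 10.24, 9.35 and 8.77, a rise of 5.89 ± 0.49. The groups did not overlap for either gene. Both were named among the 15 largest changes, for which 1 direction in all 3 donors was required, so agreement between donors is no added support. In chondrocytes PTHLH was at 4.93, 6.92 and 5.78, above the day 28 MSCs by 2.39 ± 0.41 (adjusted p = 0.00609), while PTH1R did not differ beyond the threshold (-1.34 ± 0.49, adjusted p = 0.127).

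**Figure D2:**
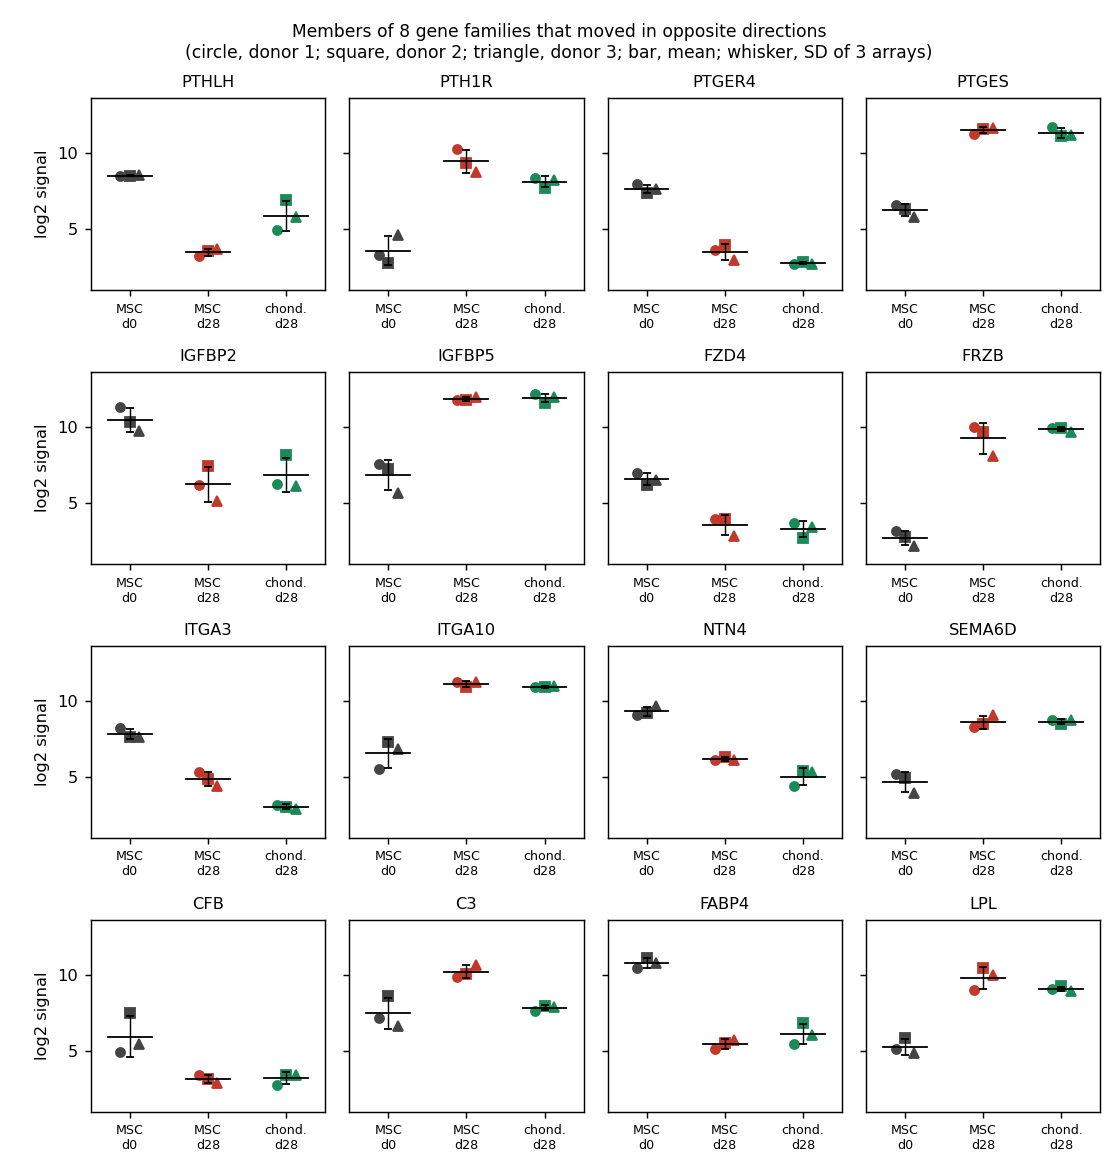
Log2 signal of 16 genes on each array of the 3 groups, with a bar at the mean and whiskers of 1 SD over 3 arrays; circles, squares and triangles are donors 1, 2 and 3, and neighbouring panels in a row pair a gene that fell with a relative that rose. PTHLH fell where PTH1R rose, PTGER4 where PTGES rose, IGFBP2 where IGFBP5 rose and FZD4 where FRZB rose. For each gene shown the 3 day 0 arrays lie apart from the 3 day 28 arrays, but the genes were picked from called changes, so this is no added support.

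Prostaglandins are lipid signals made from arachidonic acid by the cyclooxygenases PTGS1 and PTGS2 and shaped by terminal synthases. Of 12 measured genes of this pathway 3 rose and 5 fell, with a median of -0.50. The rises were in both cyclooxygenases, PTGS2 (5.38 ± 0.70) and PTGS1 (4.29 ± 0.16), and in PTGES, the terminal synthase for prostaglandin E2 (5.27 ± 0.24). PTGES read 6.59, 6.32 and 5.80 at day 0 and 11.27, 11.60 and 11.66 at day 28, with little spread. PTGS2 was more variable, at 4.29, 3.18 and 2.21 and then 7.24, 8.65 and 9.93, and donor 1 changed least. The other PTGS1 probe set, at 0.17, did not pass, and of 2 other PTGS2 probe sets, at 1.07 and 2.76, 1 passed. The genes that fell included PTGER4, a receptor for prostaglandin E2, from 7.93, 7.38 and 7.61 to 3.61, 3.95 and 2.94. PTGFR, the receptor for prostaglandin F2 alpha, fell by 3.91 ± 0.27 to levels of 1.90 to 2.14, under the 25th percentile. PTGDS, the synthase for prostaglandin D2, fell by 2.33 ± 0.49. With probe sets under the median signal left out, 3 genes rose and 2 fell of 7, and the median turned to 0.16.

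Insulin-like growth factors act through IGF1R and are held and released by binding proteins, IGFBP1 to IGFBP7. The list of 14 genes had 1 rise and 5 falls, or 42.9% called, beside 34.5% of all genes. IGFBP5 read 7.57, 7.27 and 5.68 at day 0 and 11.77, 11.76 and 11.97 at day 28, a rise of 5.0 ± 0.42 (adjusted p = 5.11e-05). IGFBP2 read 11.33, 10.31 and 9.74 and then 6.17, 7.43 and 5.12, and fell by 4.22 ± 0.70. IGFBP4 fell by 2.76 ± 0.33 and IGFBP6 by 2.72 ± 0.46. IGFBP5 was thus the 1 binding protein of the list called higher. By the probe sets used, the growth factors were not called. IGF1 read 3.96 to 4.66 at day 0 and 3.66 to 3.82 at day 28, but of its 3 other probe sets 2 were called lower, at -0.90 and -0.38. IGF2 differed by -0.06 ± 0.34. The receptor IGF1R, at -0.56, was not called.

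Wnt ligands bind Frizzled receptors, and secreted antagonists keep them off. Among 15 genes of this list 3 rose and 5 fell. FRZB, an antagonist rich in articular cartilage, read 3.15, 2.77 and 2.19 at day 0 and 9.98, 9.70 and 8.08 at day 28. The antagonist SFRP4 went the other way, from 9.02, 10.18 and 8.08 to 5.38, 5.20 and 5.41. LEF1, a transcription factor that carries Wnt signals into the nucleus, rose from 3.76, 4.02 and 2.45 to 9.44, 8.90 and 8.81, a 49.9-fold change. DKK1, an antagonist that binds LRP receptors, rose by 2.39 ± 0.48, with another probe set at 0.06 that did not pass. On the receptor side FZD4 fell by 2.98 ± 0.37 and the co-receptor ROR2 by 1.49 ± 0.27, and the other FZD4 probe set, at -0.03, did not pass. AXIN2, a feedback target of the pathway, was at -0.13 and was not called.

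The TGF-beta and BMP list had 5 rises and 7 falls among 19 genes. PMEPA1, a feedback inhibitor induced by TGF-beta, read 5.24, 4.80 and 5.60 at day 0 and 8.93, 8.23 and 7.66 at day 28. TGFBI, a secreted protein named for its induction by TGF-beta, rose by 1.91 ± 0.23. Among its ligands, INHBA, the subunit of activin A, fell from 8.6, 8.71 and 8.39 to 6.99, 6.21 and 5.53, and BMP4 from 5.54, 5.19 and 5.63 to 3.43, 3.82 and 3.60. The ligand BMP2 was called in the other direction (1.04 ± 0.31, adjusted p = 0.0318), and TGFB1 (0.13) was not called. The BMP response genes ID1 and ID3 were called higher and lower, but these calls ended in 7 and 4 of 18 alternative settings. In the fit of the 6 MSC arrays ID1 was at 1.52 and ID3 at -1.80, and neither was called. Of 6 measured Notch genes 1 rose and 1 fell, or 33.3% called, beside 34.5% of all genes. The rise was in the ligand JAG1 (0.95), whose other probe set, at 0.83, did not pass, and the fall in the target HEY1 (-1.02). Neither was called once any 1 of the 3 day 28 arrays was left out, nor in a fit of the 6 MSC arrays.

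Immediate early genes are transcription factors and phosphatases that respond within minutes to serum, strain or handling. By the probe sets used, 10 of 19 measured members fell and none rose, with a median of -0.95 and donor medians of -0.82, -0.81 and -0.80. With the mean of each gene's probe sets 8 fell and none rose, and the median was -0.62. With the probe set of largest spread 9 fell and 1 rose. FOSB, a partner of JUN proteins, read 8.91, 9.27 and 9.45 at day 0 and 2.62, 3.10 and 2.83 at day 28, a fall of 6.36 ± 0.18 (adjusted p = 1.09e-07). The orphan nuclear receptor NR4A1 fell from 7.55, 6.84 and 7.48 to 4.54, 4.82 and 5.0, and EGR1 from 10.42, 11.60 and 11.17 to 8.43, 8.83 and 9.0. DUSP1, a phosphatase that quenches MAP kinases, fell by 2.26 ± 0.39. Day 0 cells were harvested right after embedding, so that time since handling and culture cannot be told apart. FOSB was also higher in chondrocytes of day 28, at 4.40, 4.33 and 4.40, than in day 28 MSCs (1.53 ± 0.18).

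Chemokines and genes of NF-kB signalling recruit and activate blood cells. In this list of 19 genes 8 fell and 2 rose, with a median of -1.09. With probe sets under the median signal left out, 10 genes remained measured, of which 4 fell and 3 rose, and their median was 0.42. GRO1, a neutrophil attractant, read 10.17, 9.84 and 6.91 at day 0 and 2.68, 3.49 and 2.94 at day 28. CXCL5, which acts on the same receptor, read 7.94, 7.84 and 5.13 and then 2.47, 2.17 and 2.02. Donor 3 had the lowest day 0 level of either gene, and the donor medians of the list were -1.27, -0.72 and -0.24. CSF1, the growth factor of macrophages, fell from 8.30, 8.28 and 8.26 to 5.12, 4.64 and 4.73, while its other probe set, at -0.33, did not pass. In the other direction IL1R1, the receptor for interleukin 1, rose from 7.10, 7.16 and 6.75 to 9.70, 9.53 and 9.83 (2.69 ± 0.19). The monocyte attractant CCL2, a bright gene at day 0 (11.16, 11.61 and 9.60), was not called (1.13 ± 0.46).

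Complement genes moved in both directions, with 4 rises and 7 falls of 18. C3, the central protein of the cascade, read 7.13, 8.59 and 6.65 at day 0 and 9.85, 10.04 and 10.67 at day 28. CFI, a protease that inactivates C3b, rose from 3.20, 3.27 and 3.77 to 5.55, 7.11 and 7.60, and C5 by 2.61 ± 0.28. CFB, which builds the C3 convertase of the alternative pathway, fell from 4.93, 7.47 and 5.42 to 3.39, 3.14 and 2.89. C2, its counterpart in the classical pathway, fell by 3.16 ± 0.40, with another probe set at -1.09 that did not pass. Of 2 other C3 probe sets, at 0.01 and 2.81, 1 passed. With probe sets under the median signal left out, 4 genes of the list rose and 3 fell of 8, and the median turned from -0.14 to 1.21. In chondrocytes C3 was lower than in day 28 MSCs, at 7.63, 7.96 and 7.87 (-2.37 ± 0.44, adjusted p = 0.00938).

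Contractile genes of the smooth muscle type encode the actin filaments and crosslinkers of stress fibres. By the probe sets used, every one of the 18 measured members fell, beside 21.0% of all genes. The median was -1.71 and the donor medians were -1.72, -1.93 and -1.66. With the mean of each gene's probe sets 16 fell and none rose, and with its probe set of largest spread 16 fell and 1 rose. ACTA2, smooth muscle actin, read 12.46, 12.44 and 12.08 at day 0 and 6.34, 7.61 and 8.08 at day 28. The actin binder TAGLN read 9.5, 9.28 and 8.78 and then 3.84, 5.32 and 4.15, and the tropomyosin TPM2 12.64, 12.51 and 11.79 and then 8.54, 8.79 and 8.22. The smallest of the 18 falls was by 0.60. For all 18 genes the day 0 arrays lay above the day 28 arrays, beside 46.9% of all genes without overlap. Calls made on these same arrays make this likely in advance. The list was chosen with earlier results of these data known, so its shares are no independent support. In chondrocytes 8 of the 18 were higher and 1 lower than in day 28 MSCs, with ACTA2 at 10.12, 11.02 and 9.76.

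Genes that respond to YAP and TEAD, which read cell spreading, did not share 1 direction: 2 of 10 rose and 5 fell. MYOF, a membrane repair protein, fell by 1.64 ± 0.23 and the transcription factor TEAD4 by 0.88. CCN1, a secreted matrix-bound protein and a standard target, rose by 0.91 ± 0.20. F3, tissue factor, which starts clotting, read 7.53, 6.35 and 6.99 at day 0 and 9.87, 9.61 and 11.05 at day 28. CCN2, another standard target, was at 0.30 and was not called.

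Attachment genes were called in both directions. Integrins are paired receptors for matrix, and 3 of 15 genes of the integrin and focal adhesion list rose while 5 fell. ITGA10, a chain of a collagen receptor typical of chondrocytes, read 5.50, 7.28 and 6.86 at day 0 and 11.21, 10.88 and 11.25 at day 28. ITGA7, a chain of a laminin receptor, read 4.25, 3.10 and 3.66 and then 9.60, 8.21 and 9.30, and its 2 other probe sets passed with changes of 0.63 each. ITGA3, a chain of another laminin receptor, fell from 8.19, 7.63 and 7.63 to 5.34, 4.88 and 4.40. ILK, a kinase-like scaffold of focal adhesions, fell by 1.42 ± 0.16. ITGB3, a chain of vitronectin receptors, fell by 1.87 ± 0.23, and of its 3 other probe sets 2 did not pass. The cadherin CDH2, which joins neighbouring mesenchymal cells, read 10.38, 8.89 and 9.66 at day 0 and 6.03, 3.54 and 4.54 at day 28. CDH1, the epithelial cadherin, was at 5.55, 8.10 and 8.36 and then at 2.77, 2.94 and 2.60, while its other probe set, at -0.02, did not pass. In chondrocytes ITGA7 was at 5.88, 4.37 and 6.17, below the day 28 MSCs by -3.56 ± 0.52 (adjusted p = 0.00296), and ITGA10 was not called (-0.19 ± 0.38).

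Basement membrane genes encode laminins, nidogens and perlecan, which also occur around chondrocytes. Of 13 genes 5 rose and 4 fell. NID1, which links laminin to collagen IV, fell from 8.71, 8.46 and 8.66 to 4.94, 5.68 and 3.93, and FBLN1 by 2.69 ± 0.23. LAMB3, a laminin chain, rose from 3.74, 3.94 and 4.57 to 6.50, 6.93 and 7.55, LAMB2 by 1.73 ± 0.21 and HSPG2, perlecan, by 1.11 ± 0.12. Among laminin beta chains the fall of LAMB1 (-1.48) thus stood beside rises of LAMB2 and LAMB3. Guidance cues, first known from growing axons, had 7 falls and 2 rises among 14 genes, with a median of -1.14. NTN4, a secreted netrin, read 9.08, 9.2 and 9.67 at day 0 and 6.14, 6.33 and 6.10 at day 28. NRP1, a co-receptor for semaphorins and VEGF, fell by 2.3 ± 0.42. SEMA6D, a membrane semaphorin, rose from 5.17, 4.90 and 3.91 to 8.26, 8.45 and 9.08. Ephrins split, with EFNA1 at 1.81 ± 0.20 and EFNA5 at -1.81 ± 0.34, and of 2 other EFNA5 probe sets 1 did not pass.

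Proteases that remodel matrix and their inhibitors had 13 falls and 4 rises among 21 genes, with a median of -1.51. Urokinase, PLAU, read 9.24, 9.39 and 9.02 at day 0 and 4.66, 5.95 and 6.26 at day 28. Its receptor PLAUR rose from 7.31, 7.95 and 7.88 to 9.79, 9.81 and 10.47. MMP9, a gelatinase also made by blood cells, read 6.33, 7.60 and 3.89 and then 1.65, 2.52 and 2.09, with donor 3 lowest at day 0. ADAMTS1 fell from 4.69, 6.39 and 7.81 to 2.46, 2.55 and 1.61, and its other probe set, at -0.39, did not pass. TIMP4, an inhibitor of metalloproteases, rose by 2.26 ± 0.37, while 2 further probe sets at 1.24 and 1.42 did not pass. Chondrocytes were higher for 13 of the 21 genes and lower for none, with PLAU at 9.04, 9.87 and 9.66.

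Genes for cell division fell. In the mitosis list 16 of 20 fell and none rose, with a median of -1.90 and donor medians of -2.3, -1.89 and -1.23. The mitotic cyclin CCNB2 read 7.33, 8.07 and 7.0 at day 0 and 2.29, 3.58 and 3.67 at day 28. AURKB, a kinase of chromosome segregation, read 5.90, 6.29 and 5.90 and then 2.12, 2.34 and 3.14. In the list of DNA replication genes 12 of 21 fell and 1 rose, with a median of -0.97. RRM2, the subunit of ribonucleotide reductase made in S phase, read 7.68, 8.49 and 7.89 at day 0 and 3.33, 3.90 and 5.26 at day 28. TK1, which salvages thymidine, fell by 1.95 ± 0.18. UHRF1, which keeps DNA methylation through replication, fell by 3.65 ± 0.37, and its other probe set, at -0.70, did not pass. The 1 rise was PRIM1, a subunit of primase, at 0.86, a call that ended with the donor as a block and without replicate 1 or 2 of either MSC group.

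Of 14 brakes on the cell cycle and targets of p53, 6 rose and 1 fell, with a median of 0.56. CDKN1A, the inhibitor p21, was bright from the start, at 11.22, 10.76 and 11.31, and read 12.17, 11.98 and 12.10 at day 28. CDKN1C, the inhibitor p57, rose from 8.25, 8.17 and 6.91 to 9.67, 9.53 and 9.51, and 1 of its 2 other probe sets passed, at 1.13. SESN1, a stress-induced regulator of growth signalling, rose by 2.07 ± 0.29, and neither of its other probe sets (-0.18 and 0.22) passed. GADD45A, a growth arrest gene, was the exception and fell by 1.70 ± 0.34. Of the 3 groups, day 28 MSCs had the lowest median for division genes, and chondrocytes were higher for 18 of 20 mitosis genes and 18 of 21 replication genes. Relative to day 0 MSCs the median level of the mitosis list was -1.90 in day 28 MSCs and 1.52 in chondrocytes, and that of the replication list -0.97 and 0.57.

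**Figure D3:**
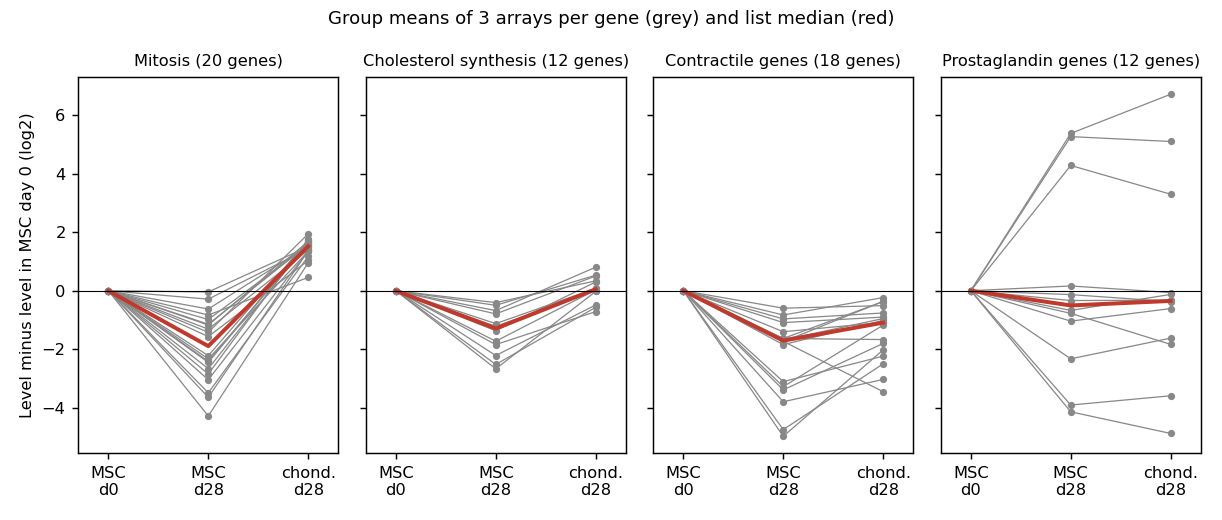
Level of each gene (grey, mean of 3 arrays) in day 0 MSCs, day 28 MSCs and day 28 chondrocytes, as log2 difference from day 0 MSCs, for 4 lists; the red line is the list median. Mitosis genes and cholesterol genes were lower in day 28 MSCs than in either other group, with medians of -1.90 and -1.29 there against 1.52 and 0.05 in chondrocytes, whereas contractile genes were low in both day 28 groups (-1.71 and -1.09) and prostaglandin genes spread apart in both.

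Cholesterol is built from acetyl units by a chain of enzymes under the control of the transcription factor SREBF2. Of 12 measured genes of cholesterol synthesis and uptake 10 fell, and the other 2, DHCR7 (-0.50) and FDFT1 (-0.41), were not called. Of 2 other FDFT1 probe sets 1 was called lower, at -1.94. The median was -1.29 and the donor medians were -1.38, -1.23 and -1.32. HMGCS1, which makes the precursor of mevalonate, read 10.88, 10.80 and 10.63 at day 0 and 8.27, 8.46 and 7.57 at day 28 (-2.67 ± 0.22, adjusted p = 4.43e-05). FDPS, which makes farnesyl pyrophosphate, read 11.53, 11.24 and 11.15 and then 8.98, 8.75 and 8.61. NSDHL, a late step of the chain, fell by 2.22 ± 0.23. Chondrocytes were higher than day 28 MSCs for 11 of the 12 genes, with HMGCS1 at 10.82, 10.63 and 10.79 and FDPS at 10.76, 10.76 and 10.70.

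Of 18 lipid storage and fatty acid genes 2 rose and 5 fell, or 38.9% called, beside 34.5% of all genes. Fatty acid binding proteins carry fatty acids inside cells: FABP4 fell from 10.41, 11.09 and 10.75 to 5.10, 5.51 and 5.73, and FABP3 from 10.75, 11.37 and 11.18 to 6.34, 6.17 and 7.17. LPL, the secreted lipase that frees fatty acids from lipoproteins, rose from 5.09, 5.85 and 4.87 to 9.02, 10.42 and 9.97. PLIN2, which coats lipid droplets, rose by 1.11 ± 0.22. FABP3 was at 12.35, 12.33 and 12.29 in chondrocytes, above day 28 MSCs by 5.76 ± 0.26, whereas FABP4 (0.66 ± 0.33) and LPL (-0.74 ± 0.36) were not called there.

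Of 24 glycolysis and oxygen sensing genes 10 rose and 3 fell, and the rises were led by genes that respond to low oxygen. EGLN3, a prolyl hydroxylase that marks HIF proteins for decay, read 4.26, 3.53 and 3.95 at day 0 and 7.24, 8.01 and 9.35 at day 28. ADM, the vessel-dilating peptide adrenomedullin, read 7.02, 9.07 and 8.07 and then 9.71, 10.68 and 11.51. SLC16A3, which exports lactate, rose by 3.21 ± 0.41, but its 2 other probe sets, at -0.04 and 0.43, did not pass. Among glycolysis enzymes, LDHA (-0.03), PGK1 (0.02) and ENO1 (-0.01) were not called, while HK1 and PFKL were called lower. For LDHA, 1 of 2 other probe sets was also called lower (-0.54). The 3 falls, in HK1 (-0.53), SLC2A3 (-0.48) and PFKL (-0.47), were small, and none was called after centring on ribosomal protein genes or cyclic loess, or without MSC_day0 replicate 3, MSC_day28 replicate 2 or MSC_day28 replicate 3. Without MSC_day28 replicate 3 the list held 8 calls in place of 13, all rises.

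Of 26 oxidative phosphorylation and citrate cycle genes 15 fell and none rose, beside 21.0% of all genes that fell. Changes were small, with a median of -0.54. SDHB, a subunit of succinate dehydrogenase, read 10.44, 10.28 and 10.26 at day 0 and 9.53, 9.43 and 9.30 at day 28. UQCRC1, a core subunit of complex III, fell by 1.12 ± 0.26, and its other probe set, at -0.11, did not pass. Without MSC_day28 replicate 3, or without MSC_day0 replicate 1, 10 members were called lower. With the mean of each gene's probe sets 11 fell and 2 rose, and with its probe set of largest spread 12 fell and 2 rose.

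Among 29 antioxidant and metal handling genes there were 5 rises and 5 falls, or 34.5% called, the same share as of all genes. CP, the copper carrier ceruloplasmin, which oxidises iron, read 6.21, 6.27 and 5.74 at day 0 and 11.73, 11.36 and 11.52 at day 28, a 44.1-fold rise. SLC39A14, an importer of zinc and iron, read 7.35, 7.60 and 7.17 and then 10.16 on each of the 3 arrays. Glutathione peroxidases, which reduce peroxides, split: secreted GPX3 rose by 2.05 ± 0.40, while GPX1 went from 10.98, 11.15 and 11.08 to 9.21, 9.39 and 9.30 and GPX4 from 12.05, 11.81 and 12.15 to 10.34, 10.34 and 10.24. The metallothionein MT1A was scattered at both times and was not called (2.58 ± 1.10).

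**Figure D4:**
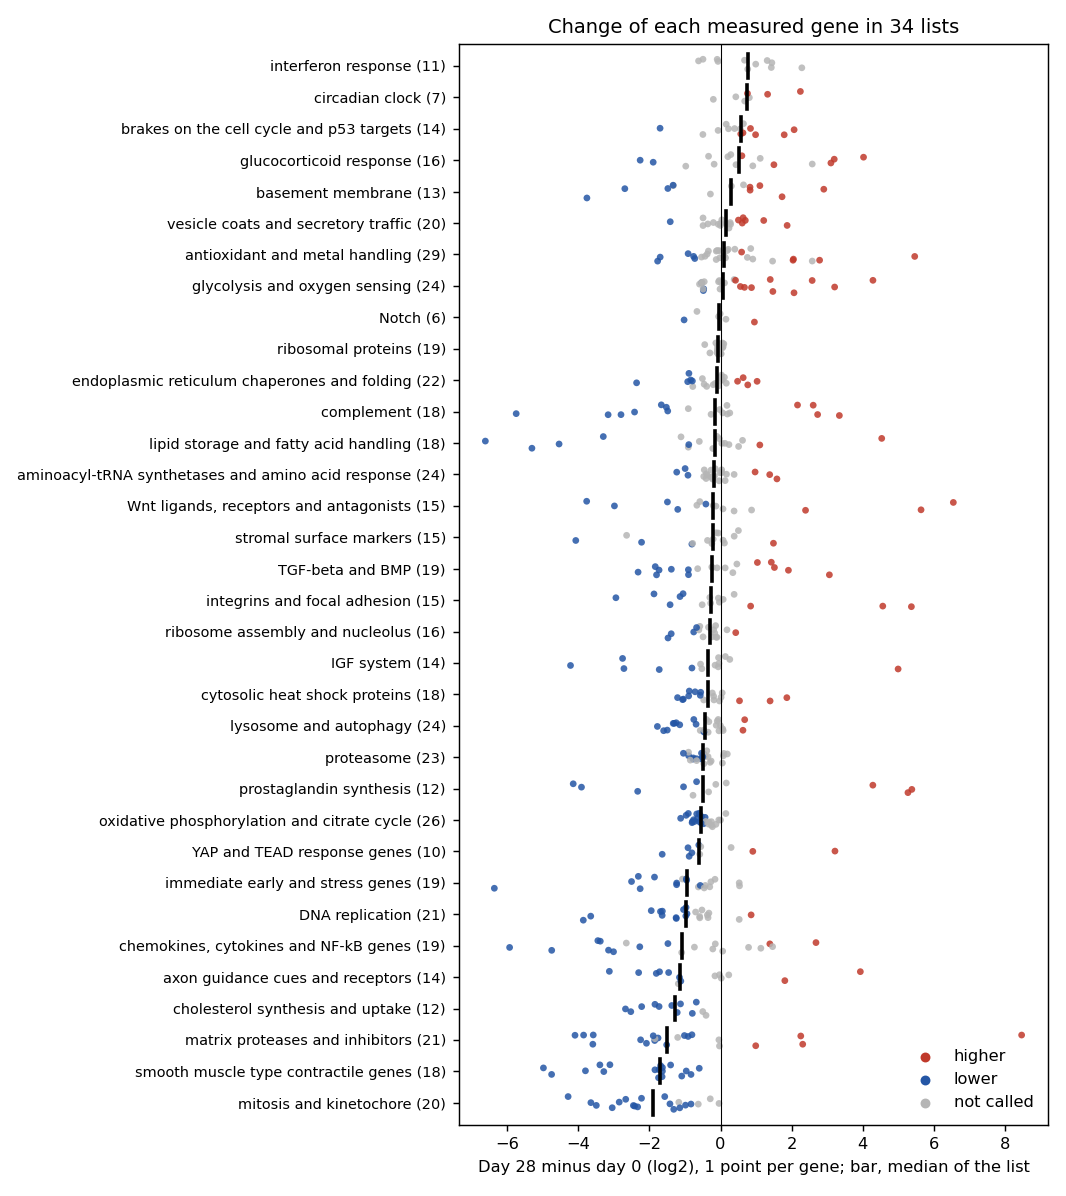
Change from day 0 to day 28 (log2, horizontal axis) of each measured gene in 34 lists, 1 point per gene, red where called higher, blue where called lower and grey where not called, with a black bar at the list median and the number of genes in brackets. Mitosis, contractile, cholesterol and immediate early genes lie to the left of 0, apart from 2 immediate early genes, whereas prostaglandin, complement, Wnt, IGF and integrin genes reach far to either side of 0.

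Protein folding in the endoplasmic reticulum prepares secreted proteins. Of 22 chaperone and folding genes 4 rose and 5 fell, or 40.9% called, beside 34.5% of all genes. The median was -0.10. The central chaperone HSPA5 was not called, at 11.88, 11.50 and 11.83 and then 11.86, 11.50 and 11.23. CRELD2, a stress-induced folding factor, fell from 7.56, 7.31 and 7.22 to 6.12, 4.80 and 4.09, and SERPINH1, the collagen chaperone HSP47, by 0.92 ± 0.22. DDIT3, the stress factor CHOP, rose by 1.03 ± 0.22, FKBP14, a collagen-folding isomerase, by 0.77 and DNAJC3, a co-chaperone, by 0.64. Among 20 genes of vesicle coats and secretory traffic 6 rose and 1 fell, or 35% called, beside 34.5% of all genes. CREB3L2, a transcription factor of secretory cells that is known to act in cartilage, read 7.81, 8.27 and 7.62 at day 0 and 9.68, 10.18 and 9.46 at day 28. SSR3, part of the protein translocon complex, rose by 1.22 ± 0.27. The 1 fall was in MIA3, which loads collagen into vesicles (-1.41 ± 0.22), but of its 4 other probe sets 2 were lower, 1 was not called and 1 was higher.

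Cytosolic chaperones had 8 falls and 3 rises among 18 genes, with a median of -0.35. HSPA8, the constitutive HSP70, read 12.38, 12.35 and 12.27 at day 0 and 11.57, 11.43 and 10.80 at day 28. HSPH1 fell by 1.21 ± 0.17 and CCT3, a subunit of the chaperonin for actin and tubulin, by 1.05 ± 0.25. The small heat shock protein HSPB8 rose from 6.88, 8.01 and 7.57 to 9.44, 9.33 and 9.29. Of 23 proteasome genes 10 fell and none rose (median -0.50), with PSMC4, an ATPase of the regulatory cap, at 9.06, 9.08 and 9.07 and then 8.22, 7.76 and 8.10. Of 24 lysosome and autophagy genes 10 fell and 2 rose (median -0.43). ATP6V0D1, a subunit of the acidifying pump, fell from 9.91, 10.11 and 10.17 to 8.80, 8.23 and 7.85, CTSK, a collagen-cleaving protease, by 1.5 ± 0.18, and MAP1LC3A, a coat protein of autophagosomes, rose by 0.63.

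Ribosomal protein genes gave 0 calls among 19 in limma, where 1 had an unadjusted p under 0.05, with a median of -0.07 and changes from -0.44 to 0.09. Of 16 genes that assemble ribosomes in the nucleolus 4 fell and 1 rose, or 31.25% called, beside 34.5% of all genes. FBL, which methylates ribosomal RNA, was at 9.67, 9.44 and 9.57 and then 8.48, 8.29 and 7.75. The 1 rise, in NOP2 (0.43), was not called without any 1 of the 6 MSC arrays, and its 2 other probe sets were at -0.43 and -0.23. The list held 3 calls in place of 5 without replicate 1 or 3 of day 0 or replicate 1 or 2 of day 28. Of 24 aminoacyl-tRNA synthetases and genes of the amino acid response 3 fell and 3 rose, or 25% called, beside 34.5% of all genes. YARS1, the tyrosine enzyme, fell by 1.23 ± 0.22 and DDIT4, an inhibitor of mTOR induced by stress and steroids, rose from 10.60, 9.81 and 10.76 to 11.70, 11.89 and 11.74. Without MSC_day0 replicate 3 the list held 2 calls, and without MSC_day0 replicate 1 it held 3.

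Of 16 genes known to be induced by glucocorticoids 5 rose and 2 fell, or 43.8% called, beside 34.5% of all genes. The median was 0.52. What the medium held beside TGF-beta3 is not given in the sources used here. FKBP5, a chaperone partner of the glucocorticoid receptor and a standard target of it, read 3.91, 4.73 and 4.32 at day 0 and 8.51, 8.85 and 7.67 at day 28, a rise of 4.02 ± 0.33 (adjusted p = 4.12e-05). The zinc finger gene ZBTB16 went from 2.45, 2.37 and 2.21 to 5.56, 5.92 and 5.14. ANGPTL4, an inhibitor of LPL, rose by 3.11 ± 0.58. Other genes of the list did not follow: DUSP1, also an immediate early gene, fell as given above, and SGK1 was at -0.34 and was not called, while 1 of its 2 other probe sets was called lower (-0.72). ZBTB16 was lower in chondrocytes than in day 28 MSCs (-0.95 ± 0.19, adjusted p = 0.0148), and FKBP5, at 7.15, 7.22 and 7.76 there, was not called.

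Clock genes form feedback loops with a daily period. Of 7 measured genes 3 rose and none fell, or 42.9% called, beside 34.5% of all genes. PER2, a repressor in the loop, read 8.11, 7.63 and 7.97 at day 0 and 9.85, 10.42 and 10.18 at day 28, and NR1D1, a nuclear receptor of its other arm, 6.57, 5.74 and 5.99 and then 7.31, 7.34 and 7.63. NFIL3 rose by 0.76, and its other probe set, at 0.16, did not pass. With the donor as a block 5 clock genes rose in place of 3, and with the mean of probe sets 5 rose and 1 fell. The hour of harvest is not given in the sources used here, so clock phase and culture cannot be told apart.

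Markers of other cell types were measured beside these groups. Of 16 blood cell markers 5 fell and 1 rose, or 37.5% called, beside 34.5% of all genes. Their summed signal, as log2, ranged from 9.43 to 10.3 on day 0 arrays and from 9.10 to 9.51 on day 28 arrays. All 3 arrays read under the 25th percentile for 4 of these markers at day 0 and for 7 at day 28. The macrophage gene CD68 read 6.12, 5.42 and 4.71 at day 0 and 3.92, 3.81 and 4.10 at day 28, while CSF1R, the receptor for CSF1, rose from 4.42, 4.96 and 3.78 to 6.44, 5.99 and 5.60. Calls for the microglial and macrophage genes AIF1 and TYROBP, at -2.08 and -2.43, ended without MSC_day0 replicate 1 or replicate 2, and the blood list then held 3 calls in place of 6. The call of AIF1 also ended without MSC_day28 replicate 1 or 2, where the list held 4. The 5 markers that fell did so beside chemokines, MMP9 and OLR1, and their part in those falls was not tested.

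Endothelial markers gave 2 rises among 11, or 18.2% called, beside 34.5% of all genes. Their summed signals were 7.61 to 8.09 and 8.58 to 8.73. The angiopoietin receptor TEK rose by 2.22 ± 0.29, whereas CDH5 (0.01) and VWF (0.01), which define the type, were not called. The list held 1 call without MSC_day0 replicate 1 or without any 1 of the day 28 arrays. Fat cell markers gave 3 rises and 1 fall among 11, or 36.4% called, beside 34.5% of all genes. Their sums were 10.9 to 11.4 and 11.4 to 12.3. The rises were RBP4, the enzyme GPD1 (1.57 ± 0.24) and CIDEC (0.73), and the fall was FABP4. CIDEC was not called without any 1 of the day 0 arrays or without replicate 1 or 2 of day 28. The fat hormones ADIPOQ (-0.10) and LEP (0.07) were not called. Bone markers gave 2 rises among 7, ALPL and the homeobox gene DLX5 (1.17 ± 0.25), while BGLAP, osteocalcin, was at -0.75 and was not called. Of 8 nerve and glia markers only S100B rose, a calcium-binding protein that cartilage also makes, from 9.51, 10.12 and 9.94 to between 11.93 and 12.01. Epithelial markers gave 1 rise and 2 falls among 10, and skeletal muscle markers 1 of each among 11. The shares called were 28.6% for bone, 12.5% for nerve and glia, 30% for epithelial and 18.2% for muscle markers, beside 34.5% of all genes. The epithelial list held 1 call without MSC_day0 replicate 3 or MSC_day28 replicate 2. The muscle list held none without replicate 2 of either group, 1 without MSC_day0 replicate 3 or MSC_day28 replicate 1, and 3 without MSC_day28 replicate 3. The nerve list held 2 calls without MSC_day28 replicate 2.

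Donors agreed for most lists: the median of 33 of 42 lists had the same sign in each of the 3 donors. Interferon response genes, which cells switch on against viruses, were the exception with the widest spread. None of 11 was called by limma over the 3 donors, 1 had an unadjusted p under 0.05, and 1 was called higher with the donor as a block. The donor medians were -0.18, -0.45 and 3.31. MX1, an antiviral GTPase, read 4.93, 6.91 and 7.86 at day 0 and 4.06, 2.62 and 11.17 at day 28. ISG15, a ubiquitin-like modifier, read 4.16, 4.27 and 6.81 and then 4.85, 2.65 and 10.70, and USP18, which removes ISG15, 5.06, 5.66 and 6.75 and then 5.58, 5.60 and 10.57. Day 28 MSCs of donor 3 gave the highest of all 9 signals for 10 of the 11 genes, and donor 3 was also the highest at day 0 for 7. Chondrocytes of donor 3 did not share the high level, with MX1 at 3.20 and ISG15 at 3.95. The bioC control was low on the array of these chondrocytes as well, at 8.43. Without MSC_day28 replicate 3 the list held 3 falls and 1 rise, and it held 1 rise without MSC_day28 replicate 1 or replicate 2.

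**Figure D5:**
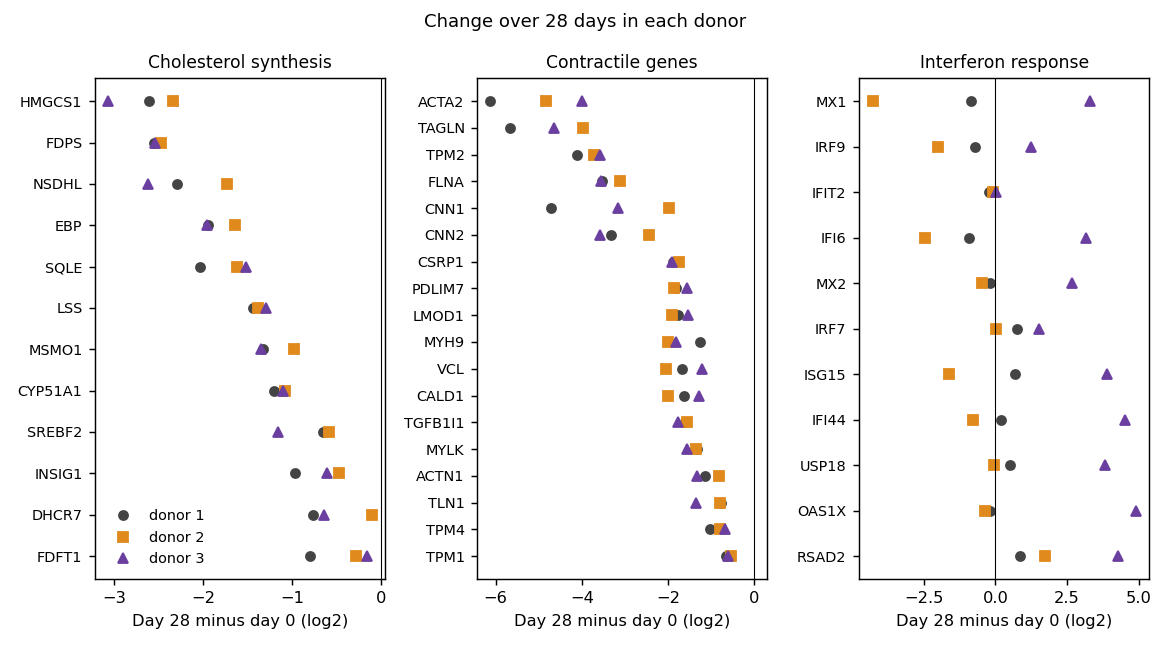
Change from day 0 to day 28 (log2, horizontal axis) in each donor for the measured genes of 3 lists; circles are donor 1, squares donor 2 and triangles donor 3. All 3 donors lie below 0 for every cholesterol and contractile gene, while donor 3 stands to the right of the others for the interferon genes apart from IFIT2, where the donors lie together, with a median of 3.31 against -0.18 and -0.45.

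Over all 9155 genes, the change in donor 3 exceeded that in each other donor by more than 2 on the log2 scale for 47 genes and lay below both by that margin for 8. The counts were 11 and 13 for donor 1 and 8 and 15 for donor 2. Of the 47 genes, 8 were among the 11 measured genes of the interferon list. This list is short, so the count need not cover all interferon genes among the 47. Of the 19 measured genes in the list of chemokines 4 were present, among them GRO1 and CXCL5, whose low day 0 level in donor 3 is given above. F13A1 led the genes that lay below in donor 3, by 5.60, again through its high level at day 0. These genes were picked by their departure between donors and carry no test.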

How the data were processed

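Total RNA was primed at the poly(A) tail, amplified, labelled with biotin and hybridised to bovine arrays, per the labels' protocols. Per the submitters' processing notes, the authors used RMA to make the deposited log2 signals; its version is not given in the sources used here. RMA sets all arrays to 1 distribution, so a shift in total RNA per cell cannot be seen. Tests used 24016 of 24128 probe sets, without 112 controls. Of those tested, 13292 had 1 symbol, 86 several and 10638 none; the latter 2 kinds were tested and not named. Symbols came from the platform annotation, none of which differed by gene identifier from RefSeq (ARS-UCD2.0). Several probe sets stood for 2913 of the 9155 genes named.

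The 3 groups of 3 arrays were fitted without a block by lmFit and eBayes of limma 3.58.1, under R 4.3.3, and p-values were adjusted over all probe sets. On simulated data for the day 28 minus day 0 comparison, over 24016 probe sets, 58 of 100 changes of 1 and 96 of 100 changes of 2 (log2) were recovered, with 9 false among 163 calls. No other probe sets were changed there and no donor effect was put in, whereas 30.2% of probe sets were called in the data. These rates therefore do not give the sensitivity of the comparison itself. The labels give the donor. Deviations from group means correlated at 0.268 to 0.365 between day 0 and day 28 arrays of the same donor and at -0.303 to -0.067 between donors, so the numbers pair the samples. The donor was a block in 1 of 18 alternatives.

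The rule for named genes took the 15 largest rises and falls among calls alike in 3 donors, without LOC symbols and cartilage matrix genes, and the 3 largest rises and falls called in each of 42 lists, 191 genes in all. The members and lists were chosen with earlier results of these data known. Uncalled list members, BMP2, the interferon genes and the genes that departed in 1 donor were chosen with their values in view. Of 868 list entries, 664 genes were measured. Of the 191 genes 62 had other probe sets, and for 29 of these all others gave the same call. The number of arrays limits the precision of every value.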

Additional observations from a re-analysis of the deposited data

How the results depend on the processing

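Of 191 named genes, 158 kept their call in all alternatives run, the 30 largest changes among them. The fit with the replicate block (donor) called 8070 probe sets, 3896 higher and 4174 lower, against 7256. It moved the clock list to 5 calls and the interferon list to 1, ended the calls of ELF3, PFKL and PRIM1, and changed no other call of a named gene. A fit of the 6 MSC arrays alone called 3099 probe sets higher and 3171 lower, and 1068 genes higher and 1620 lower. Leaving out 1 array gave 5747 to 6719 called probe sets, 3925 to 4384 of at least 2-fold, and 2453 to 2903 genes. More called probe sets were higher than lower after centring on ribosomal protein genes (3708 and 3272) or cyclic loess (3760 and 3427).

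Called members of 27 of 42 lists stayed within 1.5 times the count reported. With probe sets under the median signal left out, calls numbered 2 for blood, 7 for complement, 1 for epithelium, 2 for fat, 5 for prostaglandin and 1 for skeletal muscle genes; with those under the 25th percentile left out, 1 each for Notch, interferon and skeletal muscle. Centring on ribosomal protein genes, or cyclic loess, left 1 Notch and 1 muscle call, and centring on the array median 1 endothelial call. The 6 MSC arrays alone gave 0 Notch, 1 endothelial and 1 muscle call, array weights 1 muscle call, and a trended and robust variance 1 ribosomal protein call. Without both arrays with low hybridisation controls there were 0 Notch, 3 blood, 1 endothelial, 8 glycolysis, 4 interferon and 1 muscle calls. The mean of probe sets gave 1 Notch, 6 clock, 1 endothelial, 2 ribosomal protein and 1 muscle call, and the probe set of largest spread 1 Notch, 10 tRNA synthetase, 5 clock and 1 ribosomal protein call. NOP2 reversed to -0.0784 and -0.43 under these last 2 choices. Leaving out 1 array gave 0 to 2 Notch, 2 to 6 tRNA synthetase, 3 to 7 blood, 1 to 2 endothelial, 1 to 3 epithelial, 8 to 11 glycolysis, 0 to 4 interferon, 1 to 2 nerve, 3 to 5 ribosome assembly and 0 to 3 muscle calls. The causes were not tested. Filters and single arrays leave fewer probe sets or samples.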
